A study of Zea mays and Triticum urartu with 3 samples.

Results

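The loci described here lay in the middle stretches of the 7 chromosomes of the wild diploid wheat *Triticum urartu*. A locus belonged to them when its midpoint, divided by the largest locus end listed for its chromosome, was from 0.30 to below 0.60. This rule used position only, and it took 7486 of the 45337 listed loci. All came from 1 library, TMU38, which was RNA of young leaves, titled as an lncRNA (long noncoding RNA) library. The labels give TMU38 as its genotype and name no antibody, age or treatment for it, although the text on extraction, a chromatin pull-down for the centromeric histone CENH3, is shared by all samples, so how this library was made is not clear from them. The other 2 libraries of the study came from young leaves of the maize line B73, a CENH3 pull-down of RNA and its input, and were not used. With a single wheat library there was no replicate and no test could be made, so the differences below are descriptions of this library, and neither loci nor chromosomes are replicates.

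Chromosomes of wheat and its relatives carry most of their genes toward the ends, where meiotic recombination is also concentrated. Their middle parts hold the centromere and long arrays of retrotransposons, copies of mobile elements that multiply through an RNA intermediate. RNA assembled outside annotated genes can come from such elements, from long noncoding RNA genes, from unspliced introns or from genes that the annotation missed. The table separates annotated loci, which carry a TuG1812 gene identifier, from unannotated loci, which were assembled from the reads and carry "-". A level is given in FPKM, fragments scaled to transcript length and to the size of the library, with the lower and upper confidence limits deposited beside it. The table holds no sequence and pairs no identifier with a gene name, so what the named genes encode is not given here, and at most 2 identifiers are printed.

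The middles were poor in annotated genes and nearly as rich in unannotated loci as the rest. They held 5255 annotated loci over 1398 Mb, or 3.76 per Mb, against 9.85 per Mb in the rest of the chromosomes, a 2.62-fold lower density. Unannotated loci numbered 2231, or 1.60 per Mb, against 1.75 per Mb, a ratio of 0.912 (95% interval 0.868 to 0.958). With narrower bounds, from 0.35 to below 0.55, that ratio was 1.01 (0.952 to 1.06), so the direction of this small difference depended on where the bounds were set. The middles thus had 14.1% of the annotated and 28.1% of the unannotated loci in 30% of the length. Unannotated loci made up 29.8% of the listed loci there and 15.1% elsewhere.

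The shortage of annotated loci was seen on all 7 chromosomes. Their density in the middles was 3.77 ± 0.913 per Mb (mean ± SD over 7 chromosomes) and in the rest 9.81 ± 0.848, and the ranges, 2.84 to 5.24 and 8.03 to 10.6, did not overlap. Tu4 had the sparsest middle and Tu5 the densest. The ratio of middle to rest ran from 0.303 to 0.520. For unannotated loci the density was 1.60 ± 0.160 in the middles and 1.75 ± 0.122 in the rest, the ranges overlapped, and 1 chromosome of 7, Tu3, had more per Mb in its middle.

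**Figure D1:**
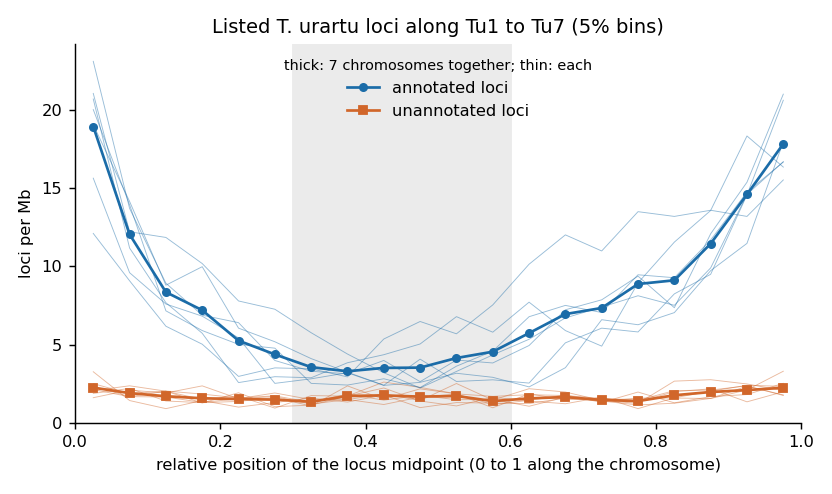
Loci per Mb (vertical axis) in 20 bins of 5% of chromosome length (horizontal axis), with thick lines for 7 chromosomes together, thin lines for each chromosome and grey for the middles. Annotated loci fell from 18.9 per Mb in the first bin to 3.29 in the bin from 0.35 to 0.40 and reached 17.8 in the last, while unannotated loci stayed between 1.34 and 2.24.

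Along the chromosomes, the annotated density formed a broad trough with no step at the bounds of the middles. The bin just outside at 0.25 to 0.30 had 4.37 per Mb and the bin from 0.60 to 0.65 had 5.73, against 3.55 and 4.54 in the bins just inside. The loci nearest to the bounds were too few to show or exclude a step, and they do not measure density. Of the 14 nearest loci inside, 9 were above 0 FPKM and 12 were annotated, and of the 14 nearest outside, 6 were above 0 and all 14 were annotated.

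The label proximal, which means near the centromere, could be checked by gene density alone, since the table marks no centromere. The 10-Mb window with the fewest annotated loci, taken in steps of 1 Mb, had its centre in the middles on 5 of 7 chromosomes. On Tu1 it lay at 0.216 of the chromosome, from 121 to 131 Mb, with 15 annotated loci. On Tu4 it lay at 0.612, from 374 to 384 Mb, with 7. For these chromosomes the sparsest window therefore fell outside the bounds, on Tu4 just beyond them, and the members are best read as loci of the chromosome middles. Across the 7 windows, 48 of 91 annotated loci were above 0 (52.7%, 95% Wilson interval 42.6% to 62.7%), and 83 unannotated loci were listed beside them.

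Long stretches of the middles held no annotated locus. The median distance between annotated loci that followed each other was 124 kb (95% rank interval 115 to 132) in the middles and 27.7 kb (26.7 to 28.8) in the rest. Stretches of 1 Mb or more numbered 274 of 5100 in the middles (5.37%) and 191 of 31336 in the rest (0.610%). The longest stretch of all ran over 4.51 Mb on Tu4 (Tu4:337472365-341985880). It was not empty of RNA: 4 unannotated loci lay in it, all of 300 bp or longer, with 381 implied fragments together and up to 68.9 FPKM. On 6 of 7 chromosomes the longest stretch lay in the middles, and the exception was Tu1, with 2.17 Mb in its middle and 2.49 Mb at 0.277. On Tu2 the lengths were almost equal, 3.13 Mb in the middle and 3.11 Mb at 0.276. The longest stretch outside the middles lay between 0.211 and 0.277 on every chromosome but Tu3, where it lay at 0.145. Long stretches thus also occurred just below the middles. In the longest middle stretches of Tu6 (2.69 Mb) and Tu7 (2.54 Mb) no locus of any kind was listed, while the stretch of 2.17 Mb on Tu1 held 10 unannotated loci.

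Annotated genes of the middles were more often detected than those elsewhere. Of 5255 annotated loci, 2620 had an FPKM above 0, or 49.9% (95% Wilson interval 48.5% to 51.2%), where the background over all annotated loci of Tu1 to Tu7 was 40.1%. In the rest the share was 38.5% (38.0% to 39.1%), which left a difference of 11.3 percentage points. It was higher in the middle on 7 of 7 chromosomes, by 4.06 points on Tu4 to 16.1 points on Tu7. At 1 FPKM or more the share was 39.0% in the middles and 28.7% in the rest, with a background of 30.1%. Intervals of shares cover counting error only.

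The higher share was not particular to the middles. In the flanks next to them, from 0.20 to 0.30 and from 0.60 to 0.70, 49.7% of 5194 annotated loci were above 0, a difference of only 0.146 points from the middles (95% interval −1.77 to 2.06). The chromosome ends, the outer 10% on each side, stood low at 30.3% (29.6% to 31.1%). Per Mb the order was the reverse: 1.87 annotated loci above 0 in the middles, 2.77 in the flanks and 4.81 in the ends. The density of detected genes thus differed 2.03-fold between the rest and the middles, less than the density of listed genes.

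**Figure D2:**
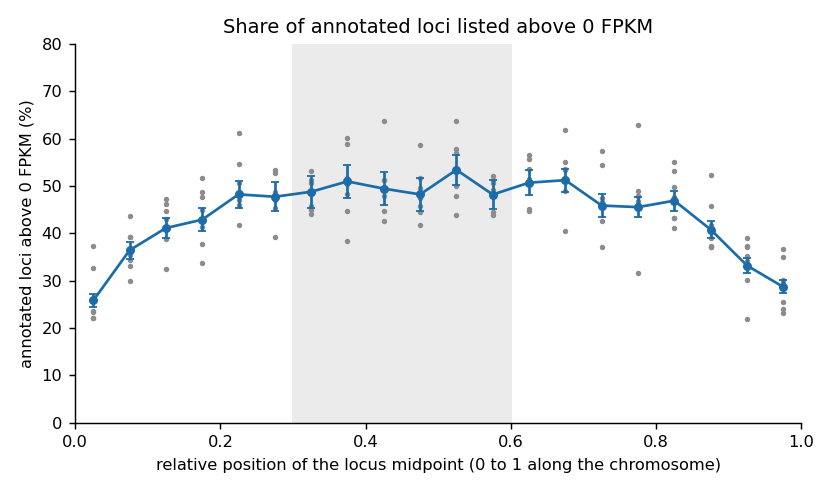
Percent of annotated loci above 0 FPKM (vertical axis) by relative position (horizontal axis) in 20 bins, with 95% Wilson intervals for 7 chromosomes together, grey points for each chromosome and grey shading for the middles. The share was 25.8% in the first bin and 28.7% in the last, and between 48.2% and 53.4% in the 6 bins of the middles.

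Detected loci of the middles were more often unannotated. Of 7486 loci of both kinds, 4851 were above 0 (64.8%), where the background over all loci was 50.6% and the rest had 47.8%, but as no unannotated locus was listed at 0, these shares partly restate how many loci were unannotated. Unannotated loci made up 46.0% of them (44.6% to 47.4%) in the middles and 31.5% (30.9% to 32.2%) in the rest. The share was higher in the middle on 7 of 7 chromosomes, by 5.67 to 21.9 points. In the flanks together it was 35.9% (34.4% to 37.4%), 10.1 points below the middles (8.08 to 12.2). The zones graded into each other, however. The bin just outside, from 0.25 to 0.30, had 41.5% (38.2% to 44.9%), and the bin just inside had 43.7% (40.1% to 47.3%). At the upper bound the bin inside, from 0.55 to 0.60, had 38.8% (35.5% to 42.1%) and the bin outside had 34.9% (32.1% to 37.9%). The share went with fewer detected annotated loci per Mb, 1.87 in the middles against 2.77 in the flanks and 3.798 in the rest, while unannotated loci per Mb were 1.60, 1.55 and 1.75. By fragments, unannotated loci held 7.89% in the middles and 8.11% in the rest. This closeness held for the sum and not for single chromosomes, where the ratio of middle to rest ran from 0.369 on Tu5 (1.74% against 4.71%) to 3.03 on Tu7 (21.7% against 7.14%), with the middle higher on 3 of 7.

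Annotated loci of the middles also spanned more DNA. Their median span was 2863 bp (2753 to 2961) against 2265 bp (2233 to 2296) in the rest. The difference was seen at loci above 0, with 4228 bp (4096 to 4345) against 3606 bp (3554 to 3655). It was not seen at loci listed at 0, with 1565 bp (1495 to 1638) and 1570 bp (1548 to 1593). Assembly bears on this comparison. An identifier of the assembly was carried by 1355 of 5255 annotated middle loci, with a median span of 5183 bp and 94.8% above 0. In the rest 5094 of 32143 carried one, with 4758.5 bp and 94.1% above 0. The 3900 middle loci that kept the gene's own identifier as the locus identifier had a median of 2066 bp (1975 to 2174) against 1870 bp (1839 to 1903) in the rest. Among those above 0 the medians were 3324 bp (3177 to 3457) and 2904 bp (2842 to 2961).

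Detection rose with span up to 8 kb in both zones and was higher in the middles at equal span from 1 kb up. Between 1000 and 2000 bp, 32.6% of middle loci (29.6% to 35.6%) and 27.2% of the others (26.2% to 28.3%) were above 0. Between 4000 and 8000 bp the shares were 75% (72.5% to 77.4%) and 64.0% (62.8% to 65.2%), and above 8000 bp they were 77.8% (74.5% to 80.8%) and 59.2% (57.2% to 61.2%). From 500 to 1000 bp they were 16.6% and 15.5%, with intervals that overlapped. Among loci that kept the gene's own identifier, 34.2% of 3900 in the middles and 28.1% of 27049 in the rest were above 0. The loci left out of these sets were above 0 in 94.8% and 94.1% of cases. How far the extension of detected loci by assembly shaped the shares was not tested.

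In the middles, a gene was nearly as often followed by a detected gene whether or not it was detected itself. When an annotated locus of the middles was above 0, the next annotated locus was above 0 in 51.9% of cases, and when it was at 0, in 47.9%, over 5248 adjacent pairs. The longest run of consecutive annotated loci at 0 had 12 members (Tu2:306907198-307741988). No comparison with the rest is made, since the rest joins zones with unlike shares above 0 and has a longer list. The shares are given as a description, since adjacent loci share their surroundings.

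Once detected, the annotated genes of the middles had levels close to those elsewhere. Among loci of 300 bp or longer and above 0, the median was 3.18 FPKM (95% rank interval 2.94 to 3.46) at 2616 middle loci and 2.80 FPKM (2.70 to 2.89) at 12369 others, a log2 ratio of 0.18. The quartiles were 1.13 and 8.46 FPKM in the middles and 0.965 and 8.14 in the rest. The direction of this small difference depended on the scale: by implied fragments per kb of locus span the log2 ratio was −0.24, with the longer spans of the middle loci in the divisor. Per chromosome, the middle medians ran from 2.71 FPKM on Tu2 to 3.68 on Tu3, and 6 of 7 were above the rest of their chromosome.

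**Figure D3:**
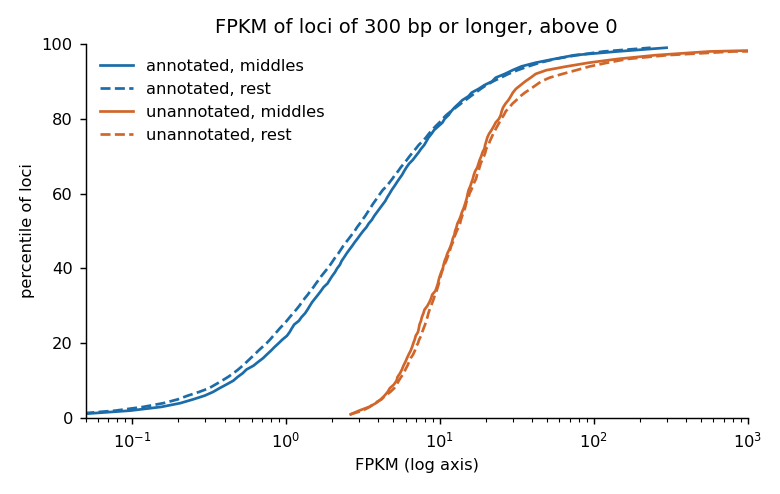
Percentiles of loci (vertical axis) by FPKM (horizontal log axis) for loci of 300 bp or longer and above 0, solid for the middles and dashed for the rest, blue for annotated and orange for unannotated loci. The solid and dashed curves of each class lie close together, with medians of 3.18 and 2.80 FPKM for annotated and 12.6 and 12.9 for unannotated loci.

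The levels of unannotated loci depended on the length of the loci taken. At 300 bp or longer, 909 of them had a median of 12.6 FPKM (11.9 to 13.5), against 12.9 (12.3 to 13.6) at 2226 loci in the rest, a log2 ratio of −0.03 (−0.14 to 0.09). With no length minimum the log2 ratio was −0.20 (−0.37 to −0.04), and at 500 bp or longer it was −0.26 (−0.46 to −0.07), so that in both settings the median was lower in the middles. None of the 2231 was listed at 0, unlike annotated loci, so a share above 0 has no meaning for them. At 300 bp or longer, their 90th percentile was 35.9 FPKM in the middles against 45.6 in the rest. This shorter upper tail was not particular to the middles, since the flanks had 36.0 and the ends 56.1.

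Within the middles, the median FPKM of unannotated loci was 3.96-fold that of detected annotated loci, but they had fewer fragments per locus. Implied fragments, the count that the width of a locus's confidence limits corresponds to, had a median of 36.0 per unannotated locus of 300 bp or longer and 73.6 per annotated locus. Fragments per locus are not scaled to length, and the classes differed in span, so these medians do not compare abundance either. FPKM divides by an effective length, which shrinks steeply for short loci. A fragment was worth 0.568 FPKM at the median of unannotated middle loci of 300 to 500 bp, and 0.0316 FPKM at annotated middle loci of 3000 bp or more. Levels of the classes are therefore not on equal terms.

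Short spans set the highest listed values. Of the 2231 unannotated middle loci, 1322 (59.3%) spanned less than 300 bp, against 61.0% in the rest, and the medians were 274 and 268 bp. At 169 of them a fragment was worth over 100000 FPKM, with a median of 332012, and these held 98.1% of the summed FPKM of unannotated middle loci from a median of 17 fragments each. Only 8 of the 169 reached 300 bp. The spread of fragments was narrow: the 10th, 50th and 90th percentiles over all 2231 loci were 12, 23 and 66, and 2.20% had fewer than 10. Annotated loci above 0 fell under 10 fragments in 7.14% of cases.

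**Figure D4:**
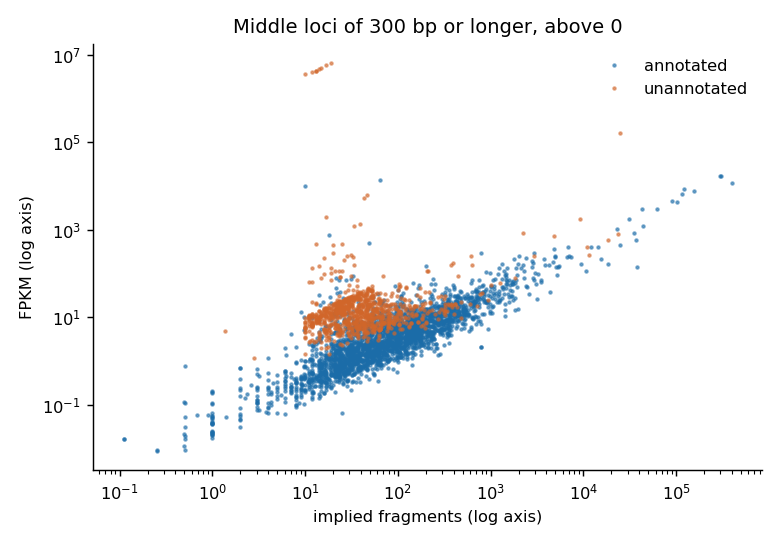
FPKM (vertical log axis) against implied fragments (horizontal log axis) for middle loci of 300 bp or longer and above 0, blue for annotated and orange for unannotated loci. The 8 unannotated loci at the top left are those at which a fragment was worth about 332012 FPKM, and the annotated loci at the right end had up to 401028 fragments.

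A few genes held most of the RNA of the middles. The middles had 28.3% of the 9859847 implied fragments of Tu1 to Tu7, near their 30% of the length, although they had 14.1% of the annotated loci. The 10 middle loci with the most fragments, all annotated, held 60.7% of the fragments of the middles, against 23.0% for the 10 highest loci of the rest. When the 10 loci with the most fragments on all chromosomes were left out, 5 of which lay in the middles, the share of the middles was 20.3%, and without the 50 highest loci it was 17.7%. The share also varied by chromosome, from 12.8% on Tu3 and 16.0% on Tu1 to 34.9% on Tu5 and 37.0% on Tu2.

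The gene with the most fragments was at Tu2:261004851-261009560, with 11589 FPKM (limits 11552 to 11625) and 401028 fragments, 4.07% of the implied fragments of Tu1 to Tu7. Next came 2 loci on Tu5 at 0.525 and 0.526 of the chromosome. TuG1812G0500001978.01 (Tu5:347398644-347399864) had 16880 FPKM (16818 to 16941) from 303301 fragments, and TuG1812G0500001981.01 (Tu5:347701038-347702249) had 17006 FPKM (16944 to 17068) from 300941. These were the highest FPKM values of annotated loci in the middles, and together with the Tu2 locus they held 36.0% of the fragments of the middles. The limits of the Tu5 loci did not overlap, although the values were close. Whether reads that fit both loci were divided between them is not given in the sources used here.

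The surroundings of the Tu5 loci were unlike them. Between them lay a gene with 6.75 FPKM (5.23 to 8.27), a gene listed at 0 and an unannotated locus of 350 bp with 16.6 FPKM (10.8 to 22.5). That unannotated locus (Tu5:347700611-347700960) lay just before the second of the highly expressed loci and had 32 fragments. The loci between were thus far below both.

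Other abundant genes were spread over the middles of Tu2, Tu4, Tu6 and Tu7. On Tu7, the locus at Tu7:422088066-422089167 had 7645 FPKM (7606 to 7684) and 154268 fragments. On Tu2, 3 more of the 10 had 8466 FPKM (Tu2:300265466-300266957), 6676 FPKM (Tu2:250742303-250743549) and 4426 FPKM (Tu2:328601486-328603117). Tu2 thus had 4 of the 10, more than any other chromosome. The locus with the most fragments in the middle of Tu4 (Tu4:195325061-195327842) had 4386 FPKM, and that of Tu6 (Tu6:179389929-179391253) had 3026. The last of the 10 (Tu7:216353759-216357023) lay close to the lower bound of the middles and had 1191 FPKM.

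By implied fragments, the middles of Tu1 and Tu3 had none of these loci. Their highest loci by fragments had 408 FPKM on Tu1 (Tu1:270846035-270859803, 12126 fragments) and 411 FPKM on Tu3 (Tu3:295218140-295220711, 14441 fragments). A gene in the middle of Tu3 listed at 1372 FPKM could not be ranked. Its level could not be estimated (status FAIL), and its fragments were therefore set to 0. Among 12231 annotated loci of Tu1 to Tu7 with 20 or more fragments, 6 of the 10 highest by FPKM lay in the middles (60%, Wilson interval 31.3% to 83.2%), where 18.0% of all such loci lay. These 6, and so the middle loci of the 20 highest, include the locus at Tu3:294811896-294813884. Its 13384 FPKM came from only 63.6 fragments. With the 50 highest the share was 24% (14.3% to 37.4%), with the 100 highest it was 18.0% (11.7% to 26.7%), and with the 1000 highest it was 16.0% (13.9% to 18.4%). The share of the middles was thus above that of all such loci among the 10 and the 20 highest (45%, 25.8% to 65.8%) and near it further down. At 100 FPKM or more, 67 of 5255 annotated middle loci (1.27%) compared with a background of 0.955%. The 67 include loci whose status was not OK, without which there were 63 (1.20%, 0.940% to 1.53%), against 0.942% of all annotated loci. Without those under 20 fragments as well there were 61.

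Not every high FPKM was well founded. Among the 10 highest annotated values of the middles were those at Tu3:294811896-294813884, with 13384 FPKM (10027 to 16741) from 63.6 fragments, and at Tu5:232196787-232197246, with 9678 FPKM (3558 to 15799) from 10.0 fragments. A fragment was worth 211 and 968 FPKM there, against 0.0289 at the Tu2 locus with the most fragments. All 3 loci of the table with the status FAIL, meaning that the level could not be estimated, also lay in the middles, a pair of overlapping genes on Tu3 (Tu3:398121105-398134186 and Tu3:398121401-398135877) and a gene on Tu5 (Tu5:218071394-218080047). They were listed at 1372, 193 and 580 FPKM, in that order, and so count as above 0. Their implied fragments were set to 0 because of the status, which does not mean that no reads lay there.

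Many unannotated loci of the middles lay inside genes, and most of those genes were detected. Of the 2231 unannotated loci, 887 (39.8%, 37.7% to 41.8%) overlapped an annotated locus, against 37.9% (36.7% to 39.2%) in the rest. Almost all of the overlapping ones (99.1%) lay wholly inside the annotated locus. The annotated locus was above 0 in 832 of the 887 cases (93.8%, 92.0% to 95.2%), whereas loci above 0 made up 70.3% of the summed span of annotated middle loci. In the rest these values were 91.7% and 54.0%. Neither the strand nor the exons of the loci are in the table, so intronic, antisense and alternative products cannot be told apart.

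When each class of distance was scaled by the length of chromosome it covers, the middles had more unannotated loci near genes. Inside annotated loci there were 39.2 per Mb (95% counting interval 36.7 to 41.9) in the middles and 20.4 (19.6 to 21.3) in the rest. From 1 to 10 kb away there were 4.62 (4.13 to 5.16) against 2.98 (2.80 to 3.16). At 100 kb or more, which covers 58.0% of the middles and 33.9% of the rest, the density was 0.609 (0.556 to 0.665) against 0.691 (0.643 to 0.742). The density of unannotated loci in the middles, near that of the rest, thus combined a higher density close to genes with a larger share of remote sequence. The rest was itself uneven, with 2.12 unannotated loci per Mb in the ends and 1.55 in the flanks.

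**Figure D5:**
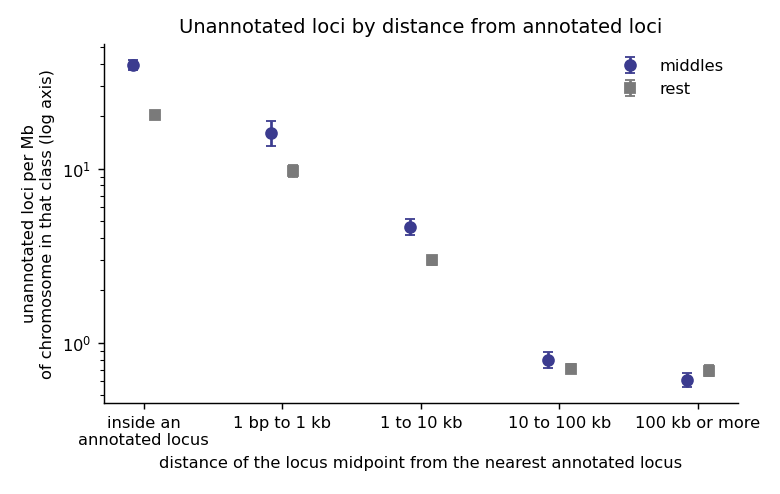
Unannotated loci per Mb of chromosome in each class (vertical log axis) by distance from the nearest annotated locus (horizontal axis), circles for the middles and squares for the rest, with 95% counting intervals. The middles lie above the rest inside genes (39.2 against 20.4) and up to 10 kb, and below it at 100 kb or more (0.609 against 0.691).

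Remote unannotated loci were longer than those inside genes. In the middles, the 492 loci at 100 kb or more from any annotated locus (22.1%) had a median span of 330.5 bp, 44.7% were under 300 bp, and their median at 300 bp or longer was 13.6 FPKM (12.2 to 15.2). The 887 overlapping loci had a median span of 255 bp, 72.5% were under 300 bp, and the median was 12.5 FPKM (11.0 to 14.0). The levels thus overlapped. In the rest, 13.3% of unannotated loci were as remote, with a median span of 307 bp. The most remote unannotated locus of the middles lay 1.37 Mb from an annotated one.

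Many unannotated loci of the middles lay in groups. Of the 2231, 1324 (59.3%) lay within 5 kb of another, in 461 groups. The same count was not made in the rest, so it is not known whether grouping was particular to the middles. Loci that overlapped annotated loci, 887 of the 2231, were counted with the others. The largest group had 12 loci (Tu3:278370678-278391097) and only 403 fragments in all. A group on Tu1 had 8 loci (Tu1:328108757-328119256), all between 5.57 and 18.3 FPKM, with 1307 fragments. Both were singled out after their values were seen.

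The most abundant unannotated RNAs lay on Tu2, Tu3, Tu4 and Tu7. The 10 unannotated middle loci of 300 bp or longer with the most fragments held 50.1% of the fragments of all unannotated middle loci, and 5 of them were 100 kb or more from any annotated locus. The first, at Tu7:253623369-253624345, had 162162 FPKM (160105 to 164219) from 24859 fragments and lay 146 kb from the nearest annotated locus. The second, at Tu7:249817888-249819357, had 802 FPKM (792 to 813) from a similar 23464 fragments. Their FPKM thus differed by far more than their fragments.

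At the lower bound of the middles on Tu2, a locus of 1572 bp (Tu2:226763970-226765541) had 586 FPKM (577 to 595) and lay 541 kb from the nearest annotated locus. It was the strongest of a group of 7 unannotated loci (Tu2:226754900-226765541). On Tu4, the locus at Tu4:333026888-333028267 with 407 FPKM (399 to 415) and its neighbour at Tu4:333025334-333025898 with 702 FPKM (682 to 722) lay close to each other, 1.64 and 4.01 kb from the nearest annotated locus. A pair on Tu2 had 1710 FPKM (Tu2:272379920-272380419) and 845 FPKM (Tu2:272378611-272378995), 4.45 and 3.14 kb from an annotated locus. Of the remaining 3, the locus at Tu7:352522828-352524883 had 262 FPKM (257 to 267) and lay 4998 bp from an annotated locus. The loci at Tu3:316398823-316399574, with 254 FPKM (244 to 263), and at Tu4:353035530-353036752, with 79.0 FPKM (75.3 to 82.7), lay 234 and 415 kb away. The abundant unannotated RNAs were thus found both beside genes and far from any.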

How the data were processed

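RNA of young leaves of *T. urartu* (TMU38) was sequenced by the authors in 1 library. The deposited values are FPKM per locus with lower and upper confidence limits, which the authors made with Cufflinks. The submitters' processing notes name CASAVA, TopHat2 2.0.12 and Cufflinks for all samples, and only a maize genome build. The wheat build, the annotation, the strand setting and the Cufflinks version are not given in the sources used here. The maize tables were not used.

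Starts were counted from 0 in the table and are given from 1. Chromosome length was taken as the largest listed locus end, so the true ends are not included. Implied fragments were (2 × FPKM/(upper limit − FPKM)) squared, set to 0 for loci whose status was not OK, and 68.3% of those above 0 in the middles were whole within 0.02. Their sum, 9859847 over Tu1 to Tu7, covers listed loci and is not the number of reads. Of the middle loci, 4615 had 10 or more. Shares carry 95% Wilson intervals, medians 95% rank intervals and densities 95% Poisson intervals, which cover counting error or the spread of loci only. Medians of FPKM used loci of 300 bp or longer and above 0, with no pseudocount. An annotated locus was one with a TuG1812 identifier, and 31 in the middles carried several. Named loci were the 10 annotated by FPKM, the 10 annotated and 10 unannotated by fragments, the highest of each chromosome, and the longest stretches without annotated loci. The failed loci, the Tu5 surroundings, the groups and the flanks were added after values had been seen. The members and lists were chosen with earlier results of these data known. The code was tested on simulated data. Python 3.11.15, pandas 2.3.3 and scipy 1.17.1 were used.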

Additional observations from a re-analysis of the deposited data

How the results depend on the processing

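Chromosomes were left out in turn, since there were no replicates. No paired analysis was possible because there was 1 wheat library. Of 98 alternatives, 26 moved the value beyond its interval and 2 more turned its direction. The intervals are not comparable. Of the 26, 11 concerned the share of fragments, whose interval (28.30% to 28.35%) takes fragments as independent draws and is very narrow. The 2 alternatives for loci of 100 FPKM or more were judged by a fold range without an interval. The alternatives that neither moved nor turned a value do not measure stability alike. Of them, 4 left unchanged the value they were set against, as they removed none of the loci it used. The flanks, and the counts at 100 FPKM without doubtful loci, were chosen as alternatives after seeing the data.

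With the middles set at 0.35 to below 0.55, the density ratio to the rest was 0.396 for annotated and 1.01 (turned from 0.912) for unannotated loci, the log2 ratio of annotated medians was 0.36, the difference in the unannotated share of detected loci was 16.0 points, and the share of fragments was 16.6%. With 0.25 to below 0.65 the share of fragments was 35.1%. Against the flanks alone, the difference in annotated loci above 0 was 0.146 points and that in the unannotated share 10.1 points.

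The log2 ratio of annotated medians was 0.054 at loci of at least 1 FPKM and −0.24 by implied fragments per kb of span, which also turned direction. That of unannotated medians was −0.20 with no length minimum, −0.26 at 500 bp or longer and −0.14 as a mean of log2(FPKM + 0.1). Its sign, which the interval of the reported value does not settle, was positive by implied fragments per kb of span (0.058) and against the flanks (0.066). The difference in the unannotated share was 11.7 points without overlapping unannotated loci and 10.5 points at 300 bp or longer. The share of fragments was 29.6% without the locus with the most fragments and 20.3% without the 10 highest. The cause of these moves was not tested.

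With each chromosome left out, the annotated density ratio ran from 0.358 to 0.397, the unannotated density ratio from 0.887 to 0.928, the difference in annotated loci above 0 from 10.4 to 12.2 points, the log2 ratio of annotated medians from 0.11 to 0.24, the difference in the unannotated share from 13.1 to 16.2 points and the share of fragments from 25.4% to 29.8%.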
